A study of Homo sapiens with 3 samples.

Results

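The snoRNA host genes described here are SNHG1, SNHG3, SNHG5, SNHG6, SNHG7, SNHG8, SNHG12, SNHG15, SNHG25 and GAS5, chosen by name as non-coding genes that carry small nucleolar RNAs (snoRNAs). They are 10 of 36817 gene identifiers in the count tables, of which 20812 had reads in non-coding exons or introns. Of the 10, 9 had a row of their own in the count tables, SNHG3 had none, and all 10 had lines in the peak lists. The data are eCLIP of the RNA helicase DDX6 in MOLM-13 cells, an established human acute myeloid leukaemia line grown in serum-containing medium. eCLIP fixes proteins to the RNA they touch with ultraviolet light, cuts the RNA with RNase I, pulls the protein down with an antibody and sequences the attached fragments. The groups are 2 DDX6 immunoprecipitation (IP) libraries, made with a Novus DDX6 antibody, and 1 input library made from MOLM-13 with no antibody. No other treatment is named for any of them, so each fold below compares RNA recovered with DDX6 against RNA in the input.

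A snoRNA host gene is transcribed as a long precursor, and its introns hold snoRNAs that are cut free after splicing. C/D box snoRNAs (SNORD genes) guide methylation and H/ACA box snoRNAs (SNORA genes) guide pseudouridylation of ribosomal and spliceosomal RNA, in the nucleolus. The spliced host RNA that remains is cytoplasmic in several cases, begins with a 5′ terminal oligopyrimidine tract like ribosomal protein mRNAs, and in the best studied cases, GAS5 and SNHG1, is destroyed by nonsense-mediated decay. DDX6 represses translation, promotes decapping and is a core protein of P-bodies, granules of the cytoplasm rich in repressed mRNA.

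The start regions of these genes are shown because snoRNA hosts are known for this kind of start. RefSeq promoter windows (GRCh38.p14) matched 7 of the 10 genes. Of these, 5 are printed from 40 bases before to 20 bases after the annotated start, 5′ to 3′ on the gene's strand, with the motifs TATAA (between 40 and 16 bases before the start) and CTTT (within 10 bases of the start on either side) in capitals, both searched on the gene's strand only. The windows lie at chr6:85678714-85678773 (SNHG5, minus strand), chr9:136728165-136728224 (SNHG7, minus), chr4:118278722-118278781 (SNHG8, plus), chr1:28581854-28581913 (SNHG12, minus) and chr1:173869026-173869085 (GAS5, minus).
SNHG5: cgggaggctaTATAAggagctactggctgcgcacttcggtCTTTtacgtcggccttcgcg
SNHG7: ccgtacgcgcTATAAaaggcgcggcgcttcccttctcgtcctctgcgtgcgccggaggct
SNHG8: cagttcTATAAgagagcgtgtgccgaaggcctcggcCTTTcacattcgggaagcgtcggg
SNHG12: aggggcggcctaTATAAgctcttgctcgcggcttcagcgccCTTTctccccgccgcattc
GAS5: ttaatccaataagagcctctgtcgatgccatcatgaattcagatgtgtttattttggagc
TATAA was found in 4 of the 7 windows, against 3.91% of 34943 RefSeq promoters, and CTTT in 3 of the 7, against 9.07%. SNHG5, SNHG8 and SNHG12 held both, as did 0.406% of all promoters. GAS5, SNHG1 and SNHG3 held neither in these windows. The motifs were picked after the sequences had been read, and the SNHG12 window starts from an annotated start inside the gene, so these matches are a description only.

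Depth was 4643494 reads in the first IP, 1244213 in the second and 7807540 in the input, of which exonic reads made up 67.6%, 62.6% and 30.7%. All 10 myeloid markers checked had at least 10 input reads, the 4 B cell markers had none, and of 4 T cell markers CD4 had 294, CD3D had 15 and CD3E and CD8A had 0. No erythroid marker checked had at least 10 input reads. The labels do not say whether the IPs are from separate cultures, so the spread between the 2 IP libraries may be a technical one. Each edgeR p-value rests mostly or wholly on that spread pooled over all tested genes or rows, not on the gene's own. It also takes the input to be as variable as the IPs.

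In exons, all 9 counted host genes fell in the DDX6 IPs relative to the input. Together their exons took 6777 reads or 0.216% of the exonic reads of IP replicate 1 and 2039 reads or 0.262% of those of IP replicate 2, against 40371 reads or 1.69% in the input. Of non-coding exon reads alone they took 2.08% and 2.01% in the IPs, against 5.79% in the input. Each of the 9 was called lower in the exon fit, which sums exonic reads per gene and tests all genes in edgeR's quasi-likelihood test with a call at a Benjamini-Hochberg adjusted p under 0.05. Of the 10392 genes tested, 11.4% were called lower and 16.7% higher. Among the 910 tested genes with non-coding exon reads only, 32.6% were called lower and 8.57% higher, so a call downward was common in such genes. The 9 hosts had a median log2 fold of -2.86, beside -0.66 for those 910 genes and 0.00 for all tested genes. Ranked from the lowest fold, 8 of the 9 stood between places 2 and 49 of 10392, and SNHG6 stood at place 875. The hosts' median was -1.62 both under library size alone and with intronic reads included. Scaling to library size alone moved the median gene up by 1.24 on the log2 scale. Under library size alone 8 hosts stayed called lower and SNHG6 changed sign, to 0.12 with an adjusted p of 0.743.

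**Figure D1:**
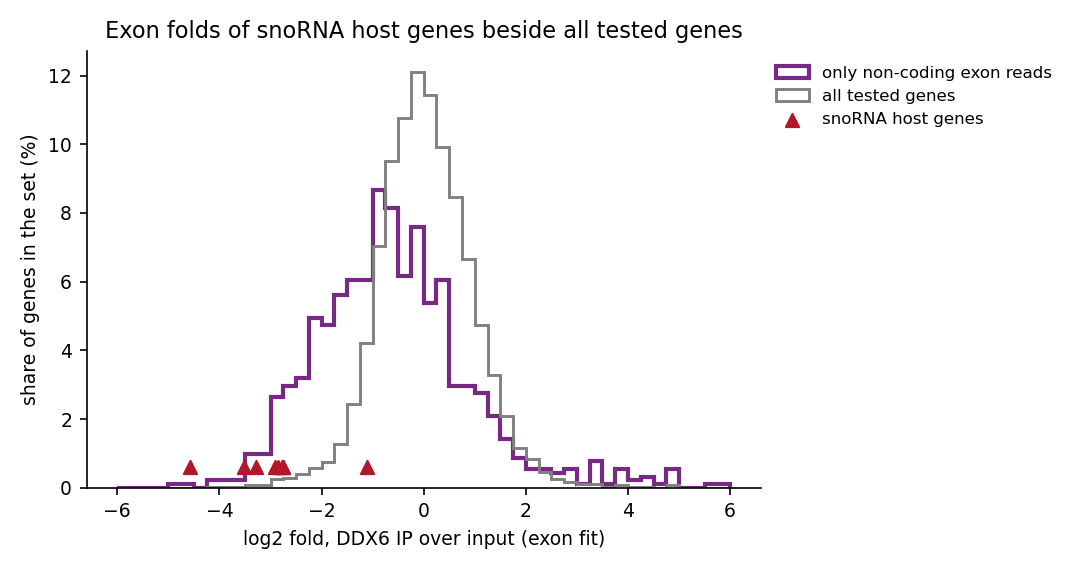
Histograms of the log2 fold of DDX6 IP over input in the exon fit, as the share of genes per bin, for 910 genes with only non-coding exon reads and for all 10392 tested genes. Triangles mark the 9 snoRNA host genes at an arbitrary height, and 8 of them lie below -2.7 while SNHG6 lies at -1.11.

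The hosts of C/D box snoRNAs are taken first. GAS5, whose introns carry a run of SNORD genes and whose RNA accumulates on growth arrest, had 1707 exonic reads in IP replicate 1 and 384 in IP replicate 2, against 8503 in the input. In TMM-scaled CPM (reads relative to the library's exonic total), its level was 509 ± 34.3 in the IPs (SD, n = 2) and 3846 in the input. Both IPs lay close together and far under the input, with log2 folds of -2.85 and -2.99, a fitted fold of -2.92 ± 0.33 (SE) and an edgeR adjusted p of 3.4e-11.

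SNHG1, the host of the SNORD22 and SNORD25 to SNORD31 genes in RefSeq, had 1494 and 441 reads in the IPs and 7631 in the input. Its level was 512 ± 63.6 CPM in the IPs (SD, n = 2) and 3452 CPM in the input. The fitted log2 fold was -2.76 ± 0.32 (SE), so the level in the IPs was 6.76 times lower (edgeR adjusted p = 1.35e-10). SNHG5, the host of SNORD50A and SNORD50B, had 685 and 177 reads in the IPs and 3297 in the input, and a level of 219 ± 6.66 CPM in the IPs (SD, n = 2) and 1491 CPM in the input. Its log2 folds in the IPs were -2.80 and -2.73, and the fitted fold was -2.77 ± 0.28 (SE, edgeR adjusted p = 1.5e-12).

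SNHG6 and SNHG25 were the extremes among the hosts. SNHG6, the host of SNORD87, had 702 and 218 exonic reads in the IPs and 1166 in the input. Its level was 247 ± 39.5 CPM in the IPs (SD, n = 2) and 527 CPM in the input, with log2 folds of -1.26 and -0.94 and a fitted fold of -1.11 ± 0.25 (SE, edgeR adjusted p = 0.000394). This was the smallest difference among the 9, and both IPs still lay below the input. SNHG25, the host of SNORD104, had 120 and 74 reads in the IPs and 3149 in the input. Its level was 65.4 ± 39.5 CPM in the IPs (SD, n = 2) and 1424 CPM in the input, which was 23.9 times lower in the IPs (fitted log2 fold -4.58 ± 0.32 SE, edgeR adjusted p = 5.01e-20). The IPs differed from each other more than for any other host, at -5.21 and -3.92, and both were far under the input. A further row named SNHG25 under an lncRNA prefix held 22 and 10 reads in the IPs and 44 in the input, and its fold of -1.20 was not called (edgeR adjusted p = 0.0652).

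SNHG12 carries both kinds of snoRNA, SNORD99 with SNORA16A, SNORA44 and SNORA61. It had 463 and 186 reads in the IPs and 4733 in the input, or 190 ± 63.7 CPM in the IPs (SD, n = 2) and 2141 CPM in the input. Its log2 folds were -3.88 and -3.18, and the fitted fold was -3.52 ± 0.31 (SE, edgeR adjusted p = 2.67e-15). This was the second lowest fold of the hosts after SNHG25.

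The hosts of H/ACA box snoRNAs behaved alike in direction. SNHG8, the host of SNORA24, had 1142 and 418 reads in the IPs and 9459 in the input, the most input reads of any host here. Its level was 442 ± 121 CPM in the IPs (SD, n = 2) and 4279 CPM in the input, with a fitted log2 fold of -3.28 ± 0.33 (SE, edgeR adjusted p = 1.5e-12). SNHG7, the host of SNORA17A and SNORA17B, had 307 and 98 reads in the IPs and 1617 in the input, with a fitted log2 fold of -2.76 ± 0.25 (SE). SNHG15, the host of SNORA9, had 157 and 43 reads in the IPs and 816 in the input, with a fitted log2 fold of -2.86 ± 0.25 (SE). Both were called lower (edgeR adjusted p of 2.32e-14 and 1.67e-15), and SNHG15 was the host with the fewest input reads.

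Between neighbouring hosts the folds mostly overlapped. From the highest to the lowest fitted fold, the order was SNHG6, SNHG1, SNHG7, SNHG5, SNHG15, GAS5, SNHG8, SNHG12 and SNHG25. SNHG1, SNHG7, SNHG5, SNHG15 and GAS5 lay between -2.76 and -2.92, within a single standard error of each other. The differences between hosts were not tested.

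**Figure D2:**
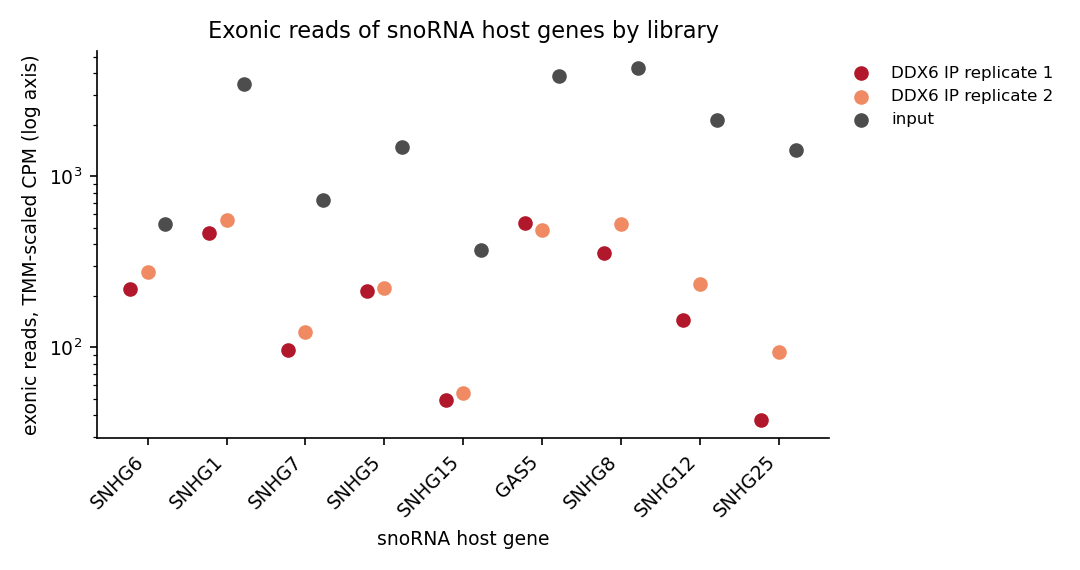
Exonic reads of the 9 counted snoRNA host genes in TMM-scaled CPM on a log axis, with 1 point per library (DDX6 IP replicate 1, DDX6 IP replicate 2, input), genes ordered by fitted fold. The input point lies above both IP points for every gene, with the smallest gap for SNHG6 and the widest for SNHG25.

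SNHG3 could not be compared in this way, as no count row carries its identifier. It overlaps RCC1, a protein-coding gene on the same strand for the guanine exchange factor of Ran, and RefSeq places SNORA73A and SNORA73B inside SNHG3. RCC1 introns had 1634 and 1205 reads in the IPs and 9345 in the input. Scaled over exonic and intronic rows together, as in the region fit described next, these were 332 and 942 CPM in the IPs and 1780 CPM in the input. The IPs stood apart from each other here, with log2 folds of -2.42 and -0.92 and a fitted fold of -1.49 ± 0.37 (SE, edgeR adjusted p = 0.000203). Introns at large lay lower than exons, with a median log2 exon fold minus intron fold of 2.57 over 8341 tested genes. Whether the RCC1 intron reads include SNHG3 exons is not known, since no source used here says how strand and overlapping genes were counted.

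Exons and introns were then put on 1 scale by testing 28825 rows of gene and region together, scaled over exonic and intronic rows. On this scale 8 of the 9 host exon rows were called lower in the IPs, beside 21.7% of the 985 non-coding exon rows tested (18.4% were called higher). Their median log2 fold was -2.25, beside -0.05 for all non-coding exon rows. SNHG6 exons were not called, with 702 and 218 reads in the IPs and 1166 in the input, a log2 fold of -0.51 ± 0.32 (SE) and an edgeR adjusted p of 0.167.

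The introns of 5 hosts had enough reads to be tested, and 3 were called lower, beside 59.2% of 1299 non-coding intron rows (5.08% were called higher). The 5 had a median log2 fold of -1.44, beside -1.43 for all non-coding intron rows, so as a set they lay at the background. SNHG5 introns had 32 and 6 reads in the IPs and 177 in the input (log2 fold -2.49 ± 0.40 SE, edgeR adjusted p = 4.32e-09). SNHG6 introns had 88 and 21 reads in the IPs and 390 in the input (-2.10 ± 0.33 SE, adjusted p = 3.01e-09, edgeR). SNHG7 introns had 43 and 12 reads in the IPs and 128 in the input (-1.44 ± 0.40 SE, adjusted p = 0.000802, edgeR), a call lost under library size alone (adjusted p = 0.0752) and in DESeq2 (adjusted p = 0.118).

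GAS5 and SNHG25 introns were not called lower. GAS5 introns had 214 and 53 reads in the IPs and 286 in the input, a log2 fold of -0.35 ± 0.32 (SE) with an edgeR adjusted p of 0.361. Most of these reads, 199 and 49 in the IPs and 260 in the input, were counted next to 5′ splice sites. SNHG25 introns had 51 and 27 reads in the IPs and 89 in the input, with log2 folds of -0.68 in IP replicate 1 and 0.31 in IP replicate 2, on either side of the input. Under library size alone the fitted folds of both introns turned positive, to 0.28 for GAS5 and 0.38 for SNHG25, and neither was called.

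The share of a gene's reads in introns moved in both directions among the hosts with tested introns. Introns took 29.8% and 26.7% of the SNHG25 reads in the IPs and 2.75% in the input, and 11.1% and 12.1% of the GAS5 reads in the IPs and 3.25% in the input. For SNHG6 the order was the other way round, with 11.1% and 8.79% in the IPs and 25.1% in the input. SNHG5 introns took 4.46% and 3.28% in the IPs and 5.09% in the input. SNHG7 introns, though called lower, took a larger share in the IPs, at 12.3% and 10.9% against 7.3% in the input.

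A test of the exon fold minus the intron fold of the same gene, in which the scaling of the libraries cancels, was made for 8341 genes. Exons had the lower fold in GAS5 (log2 difference -1.96 ± 0.46 SE, edgeR adjusted p = 3.92e-05) and in SNHG25 (-3.81 ± 0.48 SE, edgeR adjusted p = 9.36e-15). That call was rare, at 0.108% of all tested genes and 1.85% of the 271 with non-coding exon reads only. Of the 9 genes so called, SNHG25 had the lowest difference. SNHG6 had the opposite call, with exons 2.94 times above introns relative to the input (1.56 ± 0.43 SE, edgeR adjusted p = 0.000422), as did 90.6% of all tested genes and 51.7% of the 271. SNHG5 (0.32 ± 0.49 SE) and SNHG7 (-0.76 ± 0.46 SE) were not called, with edgeR adjusted p of 0.52 and 0.105.

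**Figure D3:**
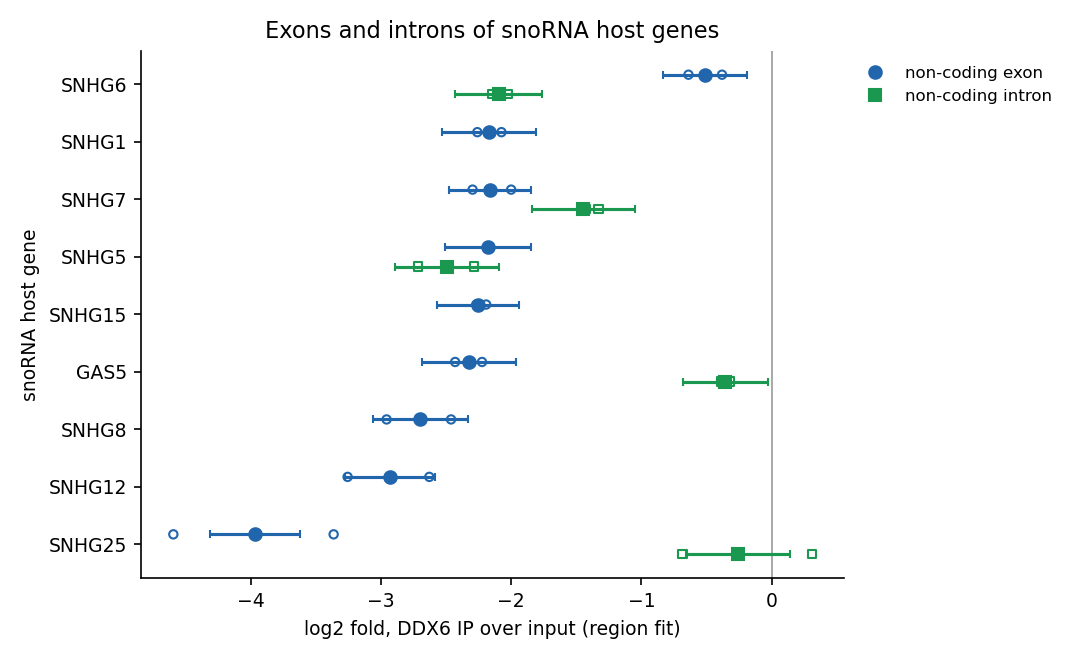
Log2 fold of DDX6 IP over input in the region fit for non-coding exons (blue circles) and, where tested, introns (green squares) of the 9 counted host genes. Filled symbols are fitted folds with their standard errors, open symbols are the 2 IP replicates. Introns of GAS5 and SNHG25 lie near 0 while their exons lie at -2.32 and -3.97, and for SNHG6 the exon lies above the intron.

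The introns of SNHG1, SNHG8, SNHG12 and SNHG15 held too few reads to test. They had 2 and 2, 8 and 1, 4 and 3, and 4 and 0 reads in the IPs, against 14, 26, 37 and 25 in the input, in that order of genes. Of 36 snoRNAs listed for the 10 hosts, 1 had a count row of its own, SNORD81 of GAS5, with 1 read in IP replicate 2 and none in the other libraries. No source used here says into which row reads inside the other snoRNAs were counted. In the peak lists, the lines naming SNORD87, SNORD104 or SNORA76 together with their host carried the non-coding exon label. The exon rows of the hosts may thus hold snoRNA reads as well as spliced host RNA, and their shares were not tested.

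The peak lists resolve where along each host the reads lay. Each line gives a stretch of bases with the authors' own log2 fold of IP over input and -log10 p, whose scaling is not given, so its folds are set only beside other peaks. The 10 hosts had 130 lines in the list of IP replicate 1 and 71 in that of IP replicate 2. No line reached a -log10 p of at least 3 with a log2 fold of at least 3, a limit passed by 11.5% of all 123298 lines of IP replicate 1 and 12.9% of all 62411 lines of IP replicate 2. None of the 1587 peaks in the authors' reproducible list overlapped a host line on the same strand by 1 base or more. Among lines in non-coding exons alone, 6.55% of 4654 and 12.7% of 1975 passed.

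Many host lines were below the input. Lines with a log2 fold above 0 were 58 of 130 (44.6%) in IP replicate 1 and 24 of 71 (33.8%) in IP replicate 2, beside 93.2% and 97.1% of all lines and 80.0% and 78.2% of lines in non-coding exons. The median log2 fold of the host lines was -0.59 in IP replicate 1 and -0.92 in IP replicate 2, beside 1.33 and 1.90 for lines in non-coding exons. With the fold limit lowered to at least 1, 36 lines of IP replicate 1 and 10 of IP replicate 2 passed, of which GAS5 gave 25 and 4 and SNHG5 gave 10 and 3. By this looser limit 34.3% and 23.9% of all lines passed, and 17.3% and 22.4% of lines in non-coding exons. Both lists were set against the same input, so their folds are not independent.

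**Figure D4:**
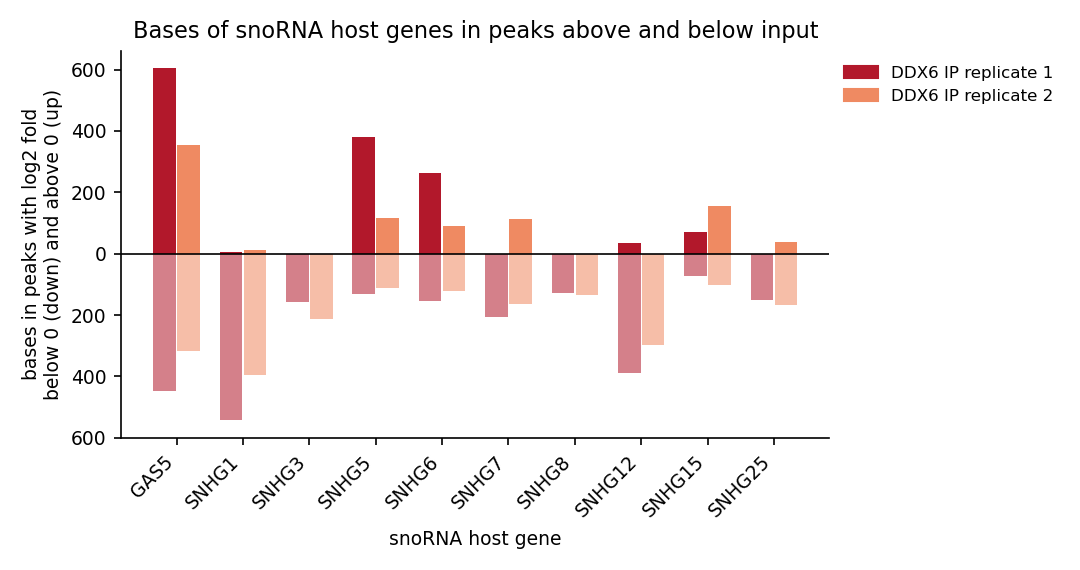
Bases covered by the authors' peak lines of each of the 10 host genes, upward for lines with a log2 fold above 0 and downward (paler) for lines below 0, in DDX6 IP replicate 1 and DDX6 IP replicate 2. GAS5, SNHG5 and SNHG6 have the most bases above the input in IP replicate 1 (604, 379 and 264), and SNHG3 and SNHG8 have none in either list.

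GAS5 lines alternated along the gene (hg19, chromosome 1, minus strand). In IP replicate 1, 32 of its 43 lines were above 0 and 11 below, covering 604 and 446 bases. Joined where they touched and had the same sign, they made 15 stretches above 0 and 8 below, with 16 changes of sign from the 5′ to the 3′ end. In IP replicate 2, 10 of 18 lines were above 0 and 8 below, covering 353 and 317 bases.

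The stretches above 0 in GAS5 were modest, and in each list 6 of the 8 stretches below 0 reached -1 or lower. At chr1:173834367-173834420 the 4 lines of IP replicate 1 had a -log10 p of up to 12.6 and held the highest fold of that list in this gene. The nearest stretch upstream, chr1:173834488-173834566, lay between -3.03 and -2.72. In IP replicate 2 the lines at these places had log2 folds of 0.43 and -3.28, on the same sides of 0. Elsewhere the lists differed in sign. At chr1:173835899-173835934 IP replicate 1 lay between 0.82 and 1.14 with a -log10 p of up to 7.78, and the line of IP replicate 2 there had -0.92. At chr1:173836129-173836181 IP replicate 1 had 0.80 with a -log10 p of 7.19, and the line of IP replicate 2 inside it had -1.23. The stretches of IP replicate 1 at or below -1 numbered 6, each 21 to 80 bases long. The deepest, at chr1:173833290-173833344, had a log2 fold of -3.24, and the line of IP replicate 2 inside it had -3.29. Which snoRNA, if any, lies under each was not analysed here, as the lines name GAS5 alone. Lines that name SNORD78 lay inside the gene too, with log2 folds of -1.32 and -1.03 in IP replicate 1 and -0.54 in IP replicate 2.

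SNHG5 (chromosome 6, minus strand) changed sign less often, 4 times in IP replicate 1 and 2 times in IP replicate 2, against 16 and 9 times in GAS5. Its 4 stretches nearest the 5′ end were above 0 in IP replicate 1, at log2 folds between 1.04 and 2.65. The highest stood at chr6:86387672-86387750, where IP replicate 2 had only a line of 10 bases with 1.06 and a -log10 p of 1.27. At the last of the 4, chr6:86387513-86387593, IP replicate 2 had no line. The following stretch, chr6:86387305-86387371, lay between -2.49 and -2.47, and chr6:86387048-86387087 lay between -3.31 and -3.16. In IP replicate 2 the lines at those places had -2.06 and -2.95, and the 5′-most stretch had 1.18 to 1.35.

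In SNHG6 and SNHG25 the low lines carry snoRNA names. SNHG6 lines that also name SNORD87 had log2 folds of -2.85 and -2.91 in IP replicate 1 and -3.24 in IP replicate 2. The other SNHG6 lines lay between -0.50 and 0.76 in IP replicate 1 (11 lines) and between -0.93 and 1.30 in IP replicate 2 (5 lines), without overlap with the SNORD87 lines. SNHG25 lines naming SNORD104 lay between -1.88 and -1.69 in IP replicate 1 and between -2.26 and -2.02 in IP replicate 2. The line naming SNORA76, an H/ACA box snoRNA, had -4.07 in IP replicate 1 (chr17:62223733-62223803, plus strand), the lowest value of any host line, and -3.01 in IP replicate 2. The single line with the SNHG25 name alone had -0.67 in IP replicate 1 and 0.45 in IP replicate 2, at different places. With 1 to 3 lines a group and shared input, no test was made.

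**Figure D5:**
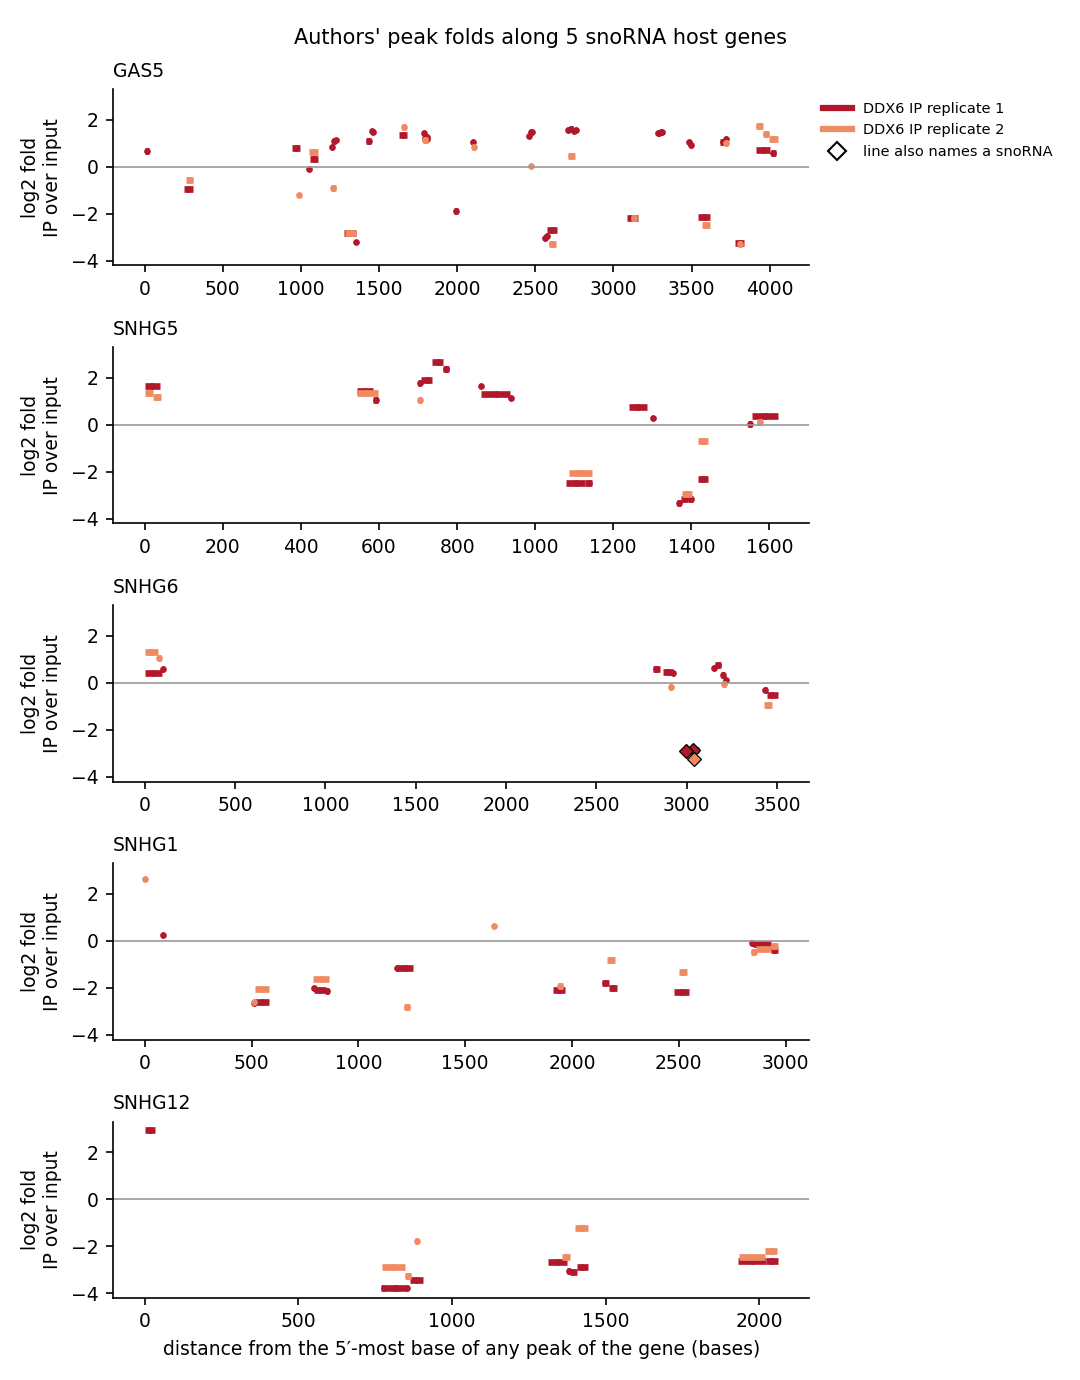
The authors' log2 fold of each peak line along GAS5, SNHG5, SNHG6, SNHG1 and SNHG12, against the distance in bases from the 5′-most base of any line of the gene. Bars are as long as the line and dots mark its centre, red for DDX6 IP replicate 1 and orange for DDX6 IP replicate 2, and diamonds mark lines that also name a snoRNA. GAS5 alternates above and below 0, and SNHG5 changes sign less often. The SNORD87 lines of SNHG6 lie near -3, and SNHG1 and SNHG12 lie below 0 except for isolated short lines.

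In SNHG1, SNHG12, SNHG8 and SNHG7 most of the bases covered by peak lines were below the input. Bases outside the lines have no fold. In SNHG1, 14 of 15 lines of IP replicate 1 and 10 of 12 of IP replicate 2 were below 0, with medians of -1.99 and -1.06. SNHG12 had 10 of 11 and 7 of 7 lines below 0. All 6 lines of SNHG8 in IP replicate 1 and all 3 in IP replicate 2 were below 0, and so were all 7 lines of SNHG7 in IP replicate 1, whereas in IP replicate 2 SNHG7 had 2 lines above and 2 below. Within SNHG8 the folds of IP replicate 1 stepped down from the 5′ side, between -2.16 and -1.81, to -3.80 and -3.83 in the lines towards the 3′ end (the last at chr4:119200400-119200471, plus strand). In IP replicate 2 the 5′ line had -2.20 and the others -2.94 and -2.54, a smaller step.

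The lines of SNHG12 and SNHG1 with the highest folds were short and lay at the 5′ end. SNHG12 had a line of 35 bases at chr1:28908303-28908337 (minus strand) with a log2 fold of 2.94 and a -log10 p of 5.31 in IP replicate 1, just under the fold limit of 3, and IP replicate 2 had no line there. SNHG1 had a line of 7 bases at chr11:62623340-62623346 (minus strand) with 2.64 and 4.59 in IP replicate 2, where IP replicate 1 had none. Each thus rests on 1 library. Over the 10 hosts, the stretch nearest the 5′ end was above 0 in 6 and below 0 in 4, in each list. In SNHG5 and SNHG6 these stretches overlapped between the lists and were above 0 in both, with SNHG6 at 0.44 to 0.59 in the first IP and 1.07 to 1.30 in the second. In SNHG1 and SNHG15 they were above 0 in both lists but at different places. The SNHG15 lines had log2 folds of 1.36 and 1.06 with a -log10 p of 1.57 and 0.88, under the limit of 3, and their centres lay 35.5 and 543 bases from the 5′-most base of any line. GAS5 and SNHG12 were above 0 in IP replicate 1 alone, and SNHG7 and SNHG25 in IP replicate 2 alone. In each of these genes the other list had no line at that place. The 5′-most stretch of the other list was below 0 and overlapped lines below 0 in both lists, as in GAS5 with -0.55 in IP replicate 2 and -0.97 in IP replicate 1.

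SNHG3 was seen in the peak lists alone. Its 6 lines in each list were all below 0, between -1.78 and -0.84 in IP replicate 1 and between -1.67 and -0.07 in IP replicate 2. Lines at the 5′ side that the lists give to RCC1 rose no higher than 0.60 in IP replicate 1 and 0.37 in IP replicate 2. The SNORA73B lines downstream, which also name lnc-PHACTR4-3, set the IPs apart. They lay at -2.22 to -0.04 in IP replicate 1 and -0.32 to 0.87 in IP replicate 2. The line at 0.87 had a -log10 p of 23.0, above the 15.8 that was the highest of any host line, though its fold was small. SNORD99, inside SNHG12, had lines at 0.46 and 0.53 in IP replicate 1 and -0.23 in IP replicate 2, above every SNHG12 line of its list except the 5′ one in IP replicate 1.

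Other snoRNA hosts gave a reference for these values. Among all 910 tested genes with non-coding exon reads only, 32.6% were called lower in the exon fit, with a median log2 fold of -0.66. Of 21 further non-coding hosts listed, 13 were tested in that fit. Of these, 8 were called lower, 0 higher and 5 were not called, with a median log2 fold of -1.06. The highest fold among the 13 was -0.09, so none had a fold above 0. SNHG32 had 503 and 157 reads in the IPs and 1950 in the input, with a log2 fold of -2.33 ± 0.26 (SE, edgeR adjusted p = 3.52e-11). SNHG9 (-3.11) and SNHG17 (-2.03) followed by p, while SNHG14 (-0.24), SNHG16 (-0.15) and ZFAS1 (-0.09) were not called (edgeR adjusted p of 0.516, 0.698 and 0.835). All 7 tested introns of these further non-coding hosts were called lower, with a median of -2.03. A lower call was also usual in non-coding intron rows at large, at 59.2% of them, with a median of -1.43.

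Of 40 protein-coding snoRNA hosts, 39 were tested, of which 17 were called lower and 3 higher, beside 11.4% and 16.7% of all tested genes. The hosts' median log2 fold was -0.52, beside 0.00 for all tested genes. The lower ones with the smallest p were the ribosomal protein genes RPS2 (-2.62), RPL17 (-1.93) and RPL32 (-2.18). CHD8, a chromatin remodeller, had 676 and 210 reads in the IPs and 160 in the input and a log2 fold of 1.70 ± 0.27 (SE, edgeR adjusted p = 6.64e-07), and PRRC2A (1.24) and WDR43 (0.99) were the other genes called higher. The WDR43 call did not hold in DESeq2 (adjusted p = 0.0513). Under library size alone the median of the non-coding hosts was 0.18 and that of the protein-coding hosts 0.71, so the signs of both medians depend on the scaling.

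Likeness to the hosts was measured as the Euclidean distance to the median of the 5 hosts with tested exons and introns, over the log2 folds of exon and intron in both IPs. Among 292 other genes with both rows, the nearest were RPL32P3, a ribosomal protein pseudogene, at a distance of 0.64, the non-coding rows of PRPF4B at 0.65 and lnc-PPEF1-7 at 0.69. RPL32P3 had exon log2 folds of -2.06 and -1.98 and intron log2 folds of -2.02 and -1.40 in the IPs, beside -2.22 and -2.18 and then -1.43 and -1.33 for the median host. Reads of a pseudogene can be shared with its near-identical copies, so its values are uncertain.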

How the data were processed

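eCLIP libraries of MOLM-13 cells were used, 2 with DDX6 IP and 1 input. The submitters' processing notes name cutadapt, UMI-tools, SAMtools and STAR and build hg19. Tool versions, counter, peak caller, annotation and treatment of strand were not given in the sources used here. Each count table, as deposited by the authors, holds unnormalised read counts by gene and transcript region. The lines of totals and of intergenic reads (4.05%, 3.78% and 2.63% of the 2 IPs and the input) stayed out of tested rows. In the TMM fits intergenic reads were also left out of the library sizes. They were part of the library sizes under library size alone and in the exon against intron fit. The authors' deposited peak lists hold a -log10 p and a log2 fold, IP over input, for each peak. How their reproducible list combined the replicates is not stated in any source used here.

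The 10 hosts, the other lists and the tests were chosen with earlier results of these data known. Genes or rows with at least 10 reads in at least 2 libraries were tested in R 4.3.3 with edgeR 4.0.16 (TMM, glmQLFit, glmQLFTest) and Benjamini-Hochberg adjustment over all tested features. The spread came from the 2 IPs, with 1 residual degree of freedom. The coefficient of variation was 16.5% in the exon fit, 18.9% in the region fit and 14.4% in the exon against intron fit. In the last 2 the prior degrees of freedom were infinite. A prior count of 2 was used for the fold of each IP. The model fits were tested on simulated data. Named were all 10 hosts, up to 3 called genes per direction and other host list by smallest p, and the 3 genes nearest the hosts' median. Alternatives were library size alone, DESeq2 1.42.0 size factors and test, other read filters, each IP left out, intronic reads included, and other peak limits. Rows under an lncRNA prefix were added to the Ensembl rows as an alternative chosen after seeing the data. Ensembl identifiers numbered 29754, of which 28576 matched the name table.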

Additional observations from a re-analysis of the deposited data

How the results depend on the processing

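All 9 counted hosts stayed called lower in exons with DESeq2 size factors, in DESeq2's test, with no filter beyond 1 read, with at least 30 reads and with lncRNA-prefixed rows added (an alternative chosen after seeing the data), and 8 did under library size alone and with intronic reads included. The exception was SNHG6, whose exon fold turned to 0.12 under library size alone in both fits (adjusted p 0.743 in the exon fit, 0.747 in the region fit) and was -0.20 with intronic reads included (adjusted p 0.552). The size of the adjusted p depended strongly on the setting. With at least 30 reads, the hosts' edgeR adjusted p in the exon fit lay between 0.000719 (SNHG15) and 0.00955 (SNHG6), while their median fold was -2.94. DESeq2's test gave adjusted p of 0.00035 for SNHG25 and 2.46e-22 for GAS5. With no filter beyond 1 read, the SNHG6 exon row of the region fit was called (-0.81, edgeR adjusted p 0.0439). In that setting 6 of 9 host introns were called lower instead of 3 of 5. Over all non-coding intron rows, 1213 of 12382 were called lower there, against 769 of 1299 in the main fit. The share called at large thus fell, and the place of the host introns beside it depended on the filter. Under library size alone the GAS5 and SNHG25 intron folds turned to 0.28 and 0.38. With either IP left out, a setting that allows no test, the hosts' median exon fold was -2.79 to -2.89. The exon against intron calls of GAS5, SNHG25 and SNHG6 held in each alternative with a test. Over all genes, library size alone called 141 genes lower and 6990 higher, DESeq2 254 and 678, and the main exon fit 1188 and 1739. Lowering the peak fold limit to 1 gave 46 host lines in both lists together instead of 0; the stricter -log10 p and the overlap rule left it at 0. No paired analysis was possible because the single input shares no replicate number with at least 2 IPs. The causes of these changes were not tested. The introns of 4 hosts held too few reads to test, and IP replicate 2 was the library with the fewest reads.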
